A study of Phrynocephalus vlangalii with 2 samples.

Results

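Lysosomes are the acidic digestive compartments of animal cells. Their enzymes cut proteins, sugar chains and lipids at low pH, and the V-type proton pump, a rotary ATPase with a soluble V1 sector and a membrane V0 sector, uses ATP to move protons into the lumen. Cathepsins are the main lysosomal proteases, and the hydrolases of glycolipids and glycoproteins are best known from the human storage diseases that follow their loss. In the tissues sampled here, liver cells and macrophages of liver and lung are rich in lysosomes.

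The genes described are the proton pump subunits, the cathepsins and legumain, the hydrolases of sphingolipids and sugar chains, and other proteins with lysosomal in their annotation text, chosen by words in that text. The choice covered 128 of 58458 assembled genes, under 45 of 4819 annotation names. All are called lysosomal below for short, although some, among the sphingolipid hydrolases, act outside the lysosome. An assembled gene is called a copy below, because several assembled pieces or related genes can carry the same name. The study compared populations of the toad-headed lizard Phrynocephalus vlangalii to ask how a cold-blooded animal lives at high altitude. The groups were adult lizards of the Madoi population and adult lizards of the Maqu population, with 1 RNA-seq library each. Each library was made from RNA of liver, lung, heart and muscle, so a change in a tissue's share and a change of RNA within a tissue cannot be told apart. The Madoi library held 63636521 estimated reads and the Maqu library 66401051. With 1 library per population there was no replicate check and no test, and each ratio below sets these 2 libraries side by side with an exact 95% counting interval that covers counting error alone. Higher or lower is used as a call for a copy or name with a combined total of 10 or more reads, a difference of 2-fold or more and an interval that leaves out equal levels.

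The copies fell into distinct kinds by their reads. Of the 128 copies, 40 were read in Madoi with 0 reads in Maqu. They carried 21 of the 45 names, where 1617 of all 4819 names had such a copy. These copies are kept apart throughout, as possibly not lizard, and are called Madoi-only below. Another 9 copies, under 5 names, had 1 to 8 reads in Maqu and a log2 ratio of at least 5, and are called nearly Madoi-only. In 78 copies, under 44 names, both libraries had reads without such a gap, and these are called shared copies. The last copy, a 205-base piece of sphingomyelin phosphodiesterase 3, had 0 reads in Madoi against 16 in Maqu.

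**Figure D1:**
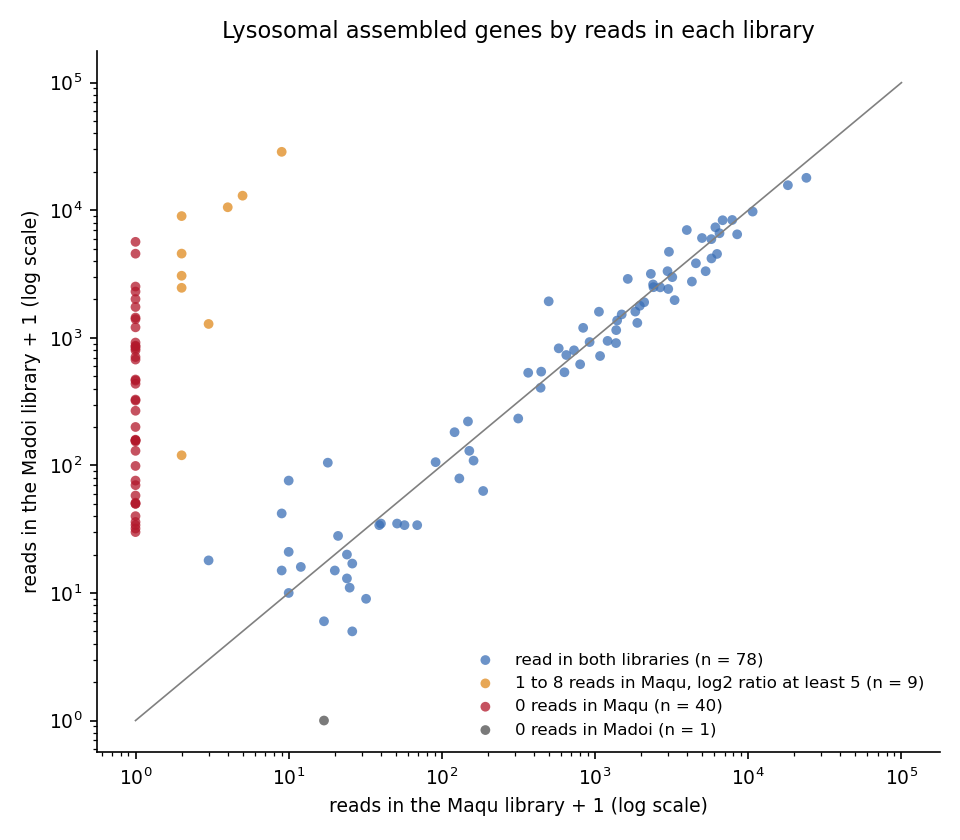
Reads of the 128 lysosomal copies in the Madoi library (vertical axis) against the Maqu library (horizontal axis), each plus 1 on log scales, with 1 point per copy, colour for the kind of copy and a grey line of equal reads. The 78 shared copies lie along the line, while the 40 Madoi-only copies stand at 0 reads in Maqu and the 9 nearly Madoi-only copies beside them, with up to 28690 reads in Madoi.

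Madoi-only copies made up 31.3% of the lysosomal copies, against 20.2% of all 14472 annotated copies. Nearly Madoi-only copies made up 7.03%, against 2.02% of the annotated copies. Together the 49 copies of both kinds held 105057 of 277868 lysosomal reads in Madoi, or 37.8%, and such copies held 6.85% of the Madoi reads of all annotated copies. In Maqu the same 49 copies had 22 reads of 181667. The excess in reads came largely from cathepsins, whose 9 copies of these kinds held 77639 reads. By number of copies the groups ranked otherwise. Madoi-only copies were 20 of 42 in the pump and 10 of 21 in the sugar chain hydrolases, or 47.6% each. They were 5 of 16 among the other lysosomal names and 3 of 20 in the sphingolipid hydrolases. Cathepsins and legumain had 2 of 29, or 6.9%, beside 7 nearly Madoi-only copies. The median length of Madoi-only copies was 825.5 bases and that of nearly Madoi-only copies 1155, against 1562.5 for the shared copies, and the longest Madoi-only copy reached 2644 bases.

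The file's gene ontology terms, which the choice of copies did not use, also differed between the kinds. Terms that name development in nematodes, hermaphrodites or insects, such as nematode larval development, stood on 4 of 35 Madoi-only copies with terms, on 0 of 9 nearly Madoi-only copies and on 0 of 71 shared copies. These were 3 copies of pump subunit I, with 29 to 49 reads in Madoi, and a copy of pump subunit H with 435. Over all annotated copies with terms the counts were 75 of 2411, 6 of 276 and 4 of 10057 in the same order. The words searched for were chosen, and then narrowed, after the terms were seen. The narrowing removed terms also used for vertebrates, and with them a copy of cathepsin B. How the terms were assigned is not given in the sources used here, and from which organism the copies derive was not tested.

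Among the shared copies, lysosomal genes had nearly equal reads in the 2 libraries. Summed by name, the 44 names had a median log2 ratio of Madoi over Maqu of 0.01, beside -0.02 for all 4680 names of the table counted the same way, and 23 names lay above 0 and 21 below. The pump subunit AC39 was called higher and 0 names were called lower; over all names 4.17% were called higher and 7.05% lower on shared copies. The other copies with Maqu reads are the nearly Madoi-only ones and the 205-base piece of sphingomyelin phosphodiesterase 3. With these added, the count was 2 names higher of 44, AC39 and cathepsin F, and 0 lower. Over all names the background was 5.89% higher and 7.15% lower. The lysosomal median was 0.12 beside 0.00 over all names. For 38 of the 44 names both sums were the same. Counted by copy, 15 of 88 copies with Maqu reads were higher, or 17.0%, and 6 were lower, or 6.82%, against 7.76% and 9.56% of annotated copies with Maqu reads. On shared copies alone, 6 of 78 were higher and 5 lower, or 7.69% and 6.41%, against 5.39% and 9.56% of annotated shared copies. With all 128 copies, 55 were higher, or 43.0%, and 6 lower, against 26.4% and 7.63% of annotated copies. Each Madoi-only and nearly Madoi-only lysosomal copy was called higher through the same reads that set its kind. The 15 of 88 and the 55 of 128 therefore largely restate how many such copies there were. The shares on shared copies leave those copies out. Shared copies were set by the same reads, however, with log2 ratios under 5 in size. Their shares, here and over all annotated copies, are therefore cut at that size. Summed over all copies, 5 of 45 names were higher and 0 lower, against 11.6% and 6.33% of all names.

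**Figure D2:**
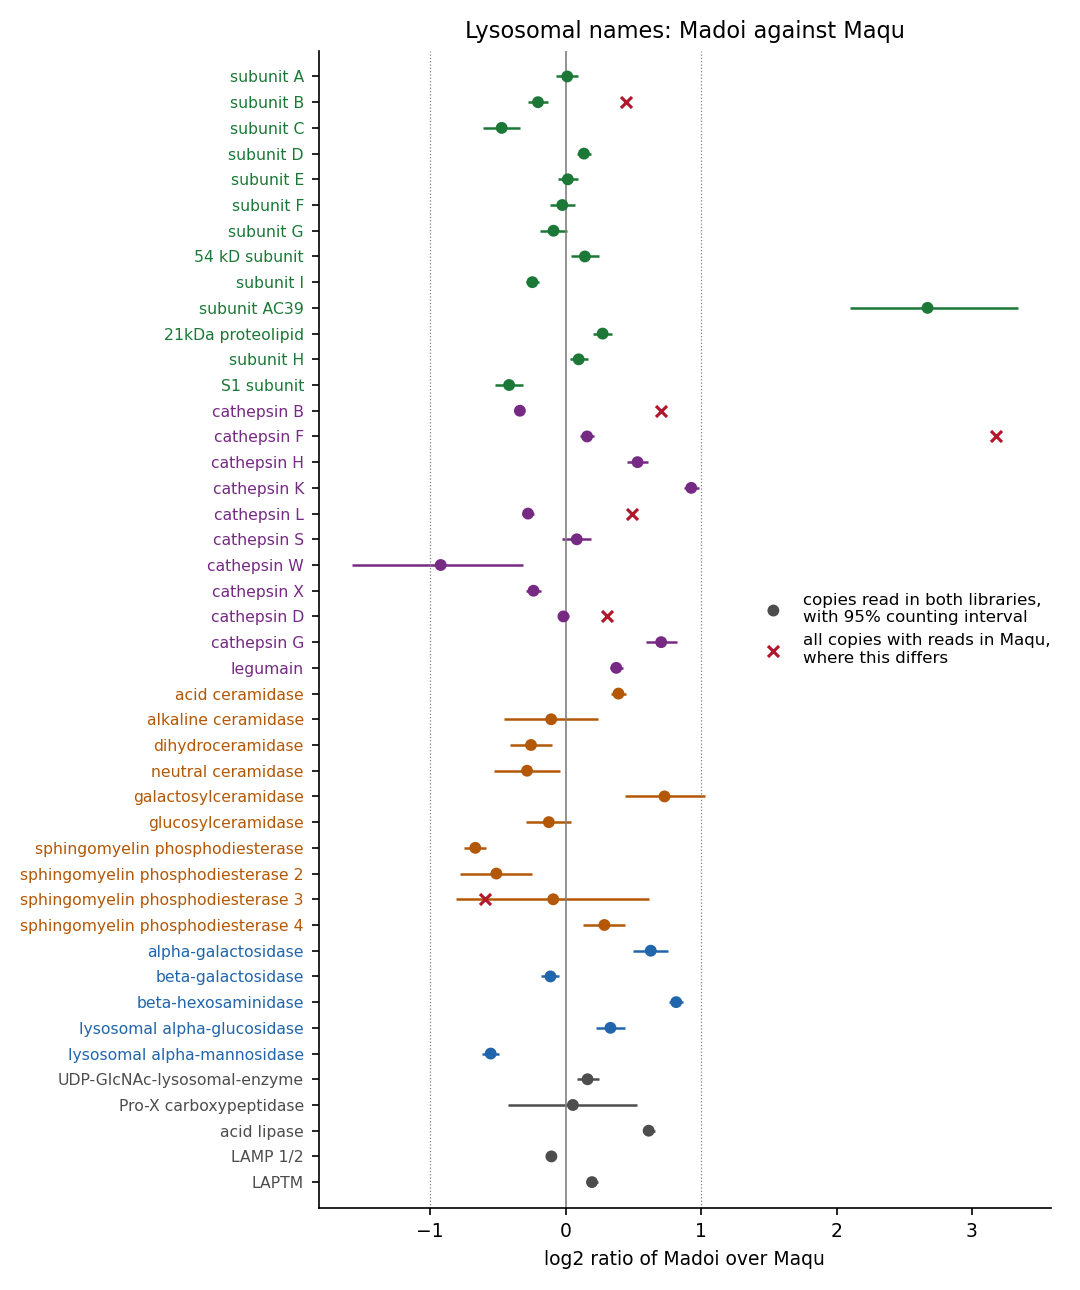
Log2 ratio of Madoi over Maqu (horizontal axis) for the 44 lysosomal names with reads in Maqu, coloured by role; points are sums over shared copies with their 95% counting interval, crosses show the 6 sums that differ when all copies with Maqu reads are used, and dotted lines mark 2-fold. On shared copies AC39 alone lies past a dotted line, at 2.67, and the cross of cathepsin F stands at 3.18 while its point stands at 0.16.

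The proton pump was nearly level between the libraries on shared copies. Its 13 names with such copies had a median log2 ratio of 0.01 on those copies, with 7 above 0 and 6 below. All 14 pump names also had a Madoi-only or nearly Madoi-only copy. Over all 4819 names, 1617 had a Madoi-only copy and 268 a nearly Madoi-only copy. The 22 pump copies of these kinds held 18307 reads, 34.6% of all pump reads in Madoi, and 3 reads in Maqu.

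The V1 sector binds and splits ATP. Subunit A, its catalytic subunit, had 2485 reads in Madoi against 2661 in Maqu on the shared copy, a ratio of 0.01 (interval -0.07 to 0.09). Subunit B, which forms the ATP-binding ring with A, had 2446 and 3042 on shared copies, a ratio of -0.20. Its nearly Madoi-only copies had 1402 and 3, and with them the ratio turned to 0.45. Both libraries were close in these ring subunits once the copies of 1 library were set aside.

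On shared copies, subunit E, a part of the outer stalks, had 2988 reads in Madoi against 3190 in Maqu. Subunit G, its partner in the stalks, had 1614 and 1854. Subunits D and F, which form the turning central shaft, had 6601 and 6488, and 1782 and 1957. For these 4 subunits the ratios on shared copies ran from -0.09 to 0.13. With their Madoi-only copies added, the ratios ran from 0.31 for subunits D and F to 0.92 for subunit E. Subunit C joins the sectors and is released when the pump is taken apart. On shared copies it was the lowest of the pump, with 719 against 1077 reads, a ratio of -0.47 (interval -0.61 to -0.34). Its Madoi-only copy had 1399 reads, and with that copy added the ratio turned to 1.09, past 2-fold. The 54 kD subunit, a regulator of V1, had 1524 and 1491 reads on its shared copy.

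The V0 sector carries protons through the membrane. Subunit I, the large membrane subunit of the file's naming, had shared copies of 4189 and 5750, 1148 and 1373, and 797 and 728 reads in Madoi and Maqu, with log2 ratios of -0.35, -0.15 and 0.24. The proteolipids form the ring that turns in the membrane. On shared copies the 21kDa proteolipid had 3326 and 2971 reads, a ratio of 0.27. Subunit H, which the file's terms place in V0, had 3562 and 3597 on shared copies. The S1 subunit, an accessory protein of the pump, had 1308 and 1886 on its shared copy, a ratio of -0.42. None of these V0 and accessory names passed 2-fold on shared copies.

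Subunit AC39, which couples the shaft to the membrane ring, was called higher in Madoi on 3 short shared pieces of 477, 315 and 241 bases, with 104 and 17, 41 and 8, and 17 and 2 reads. Their sum was 162 against 27 reads, 6.37-fold (log2 2.67, interval 2.10 to 3.34). The longest AC39 copy, of 1272 bases, was Madoi-only with 2011 reads. The 16kDa proteolipid had 1 copy, also Madoi-only, with 2303 reads in Madoi against 0 in Maqu. It was at least 829-fold higher against a limit of 3 counts for a library at 0. For these 2 V0 subunits no long copy with Maqu reads carried the name, and from which organism their Madoi-only copies derive was not tested.

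Levels per length set these copies beside the shared ones. In the authors' RPKM, the leading Madoi-only copy of subunit A stood at 9.37 in Madoi, beside 9.99 for the shared copy. That of subunit E stood at 32.5 beside 35.9, that of subunit G at 18.3 beside 26.0, and that of subunit C at 12.8 beside 7.08. Subunit B's nearly Madoi-only copy stood at 14.5 beside 12.4. The copies of the 21kDa proteolipid and of subunit H were far below their shared partners, at 6.54 beside 35.8 and 11.4 beside 60.3. The AC39 and 16kDa proteolipid copies stood at 24.9 and 25.5. Over the 12 names with a long shared copy, the ratio of the leading copy of these kinds to the shared one ran from 0.183 to 1.81.

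**Figure D3:**
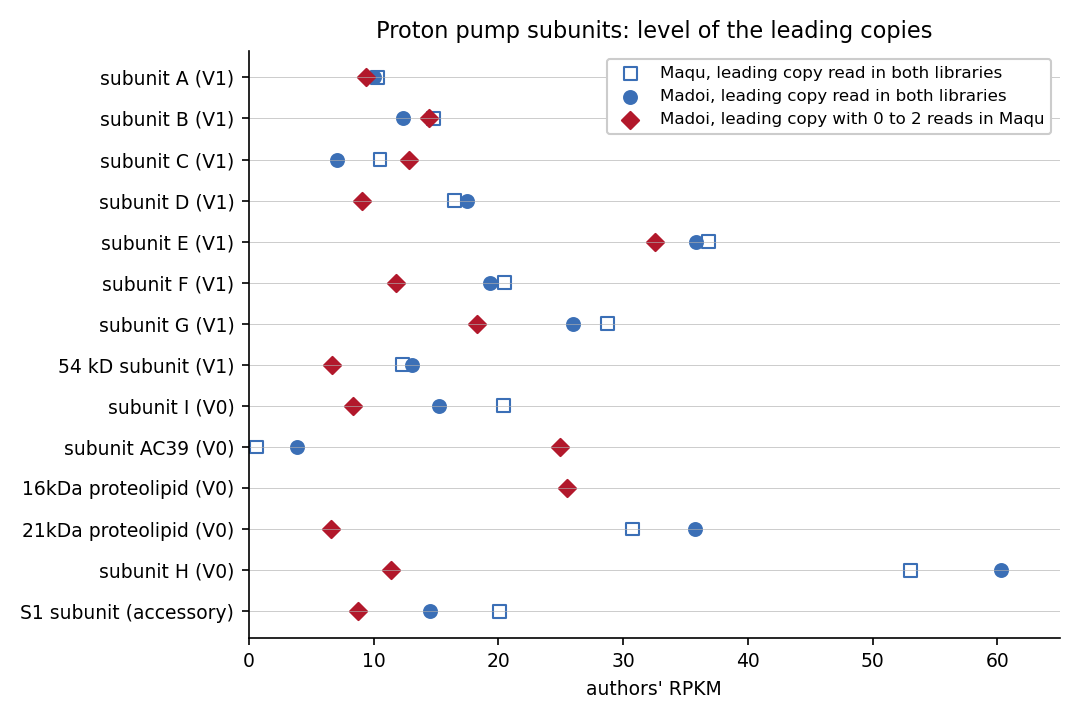
Level in the authors' RPKM (horizontal axis, linear) of the leading copies of each of the 14 pump subunits, with their sector in brackets; filled circles are Madoi and open squares Maqu on the leading shared copy, and diamonds are Madoi on the leading Madoi-only or nearly Madoi-only copy. Among subunits with a long shared copy, circles lie left of the squares for some and right for others, and diamonds range from 6.54 to 32.5.

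Cathepsins held most of the nearly Madoi-only reads. Cathepsins B, F, H, K, L, S, W and X are cysteine proteases, cathepsin D is an aspartic protease and cathepsin G a serine protease stored in granules of white blood cells. On shared copies the 11 names of cathepsins and legumain had a median of 0.08, with 6 above 0, 5 below, and 0 called higher or lower. With the nearly Madoi-only copies the median was 0.49, with 9 above 0 and 1 called higher.

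Cathepsin F had the most reads of any lysosomal name in Madoi. Its shared copy of 2234 bases had 5934 reads in Madoi against 5740 in Maqu, a ratio of 0.16 (interval 0.11 to 0.21). Its other long copies, of 1102 to 1155 bases, had 28690 and 8, 10550 and 3, 4563 and 0, and 3064 and 1 reads. The first of them stood at an authors' RPKM of 398 in Madoi, above every other lysosomal copy. With all copies that had Maqu reads, cathepsin F was 9.04-fold higher, while on shared copies it was 1.12-fold. So 88.7% of the cathepsin F reads of Madoi came from copies nearly absent from Maqu.

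Cathepsin B, an abundant lysosomal protease, showed the same split. Its main shared copy had 17945 reads in Madoi against 23954 in Maqu, and a second shared copy 2758 and 4285, with ratios of -0.31 and -0.53. Its nearly Madoi-only copies had 13000 and 4, and 8995 and 1. The sum over copies with Maqu reads had a ratio of 0.71 and the sum over shared copies -0.34, so that the direction depended on those copies. At the level of RPKM, the main shared copy was the highest of the shared lysosomal copies, at 111 in Madoi and 140 in Maqu.

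Cathepsins L and D turned in the same way. Cathepsin L had 6472 reads in Madoi against 8463 in Maqu on its main shared copy, beside 4570 and 1 on a nearly Madoi-only copy and 1743 and 0 on a Madoi-only copy. Its ratio was -0.28 on shared copies and 0.49 with the nearly Madoi-only one. Cathepsin D had 9758 and 10678 on its main shared copy and 2464 and 1 on a nearly Madoi-only copy, and its ratio was -0.02 or 0.31. On shared copies cathepsins B and L thus lay below 0 with their intervals, and the interval of cathepsin D, from -0.06 to 0.02, spanned 0.

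**Figure D4:**
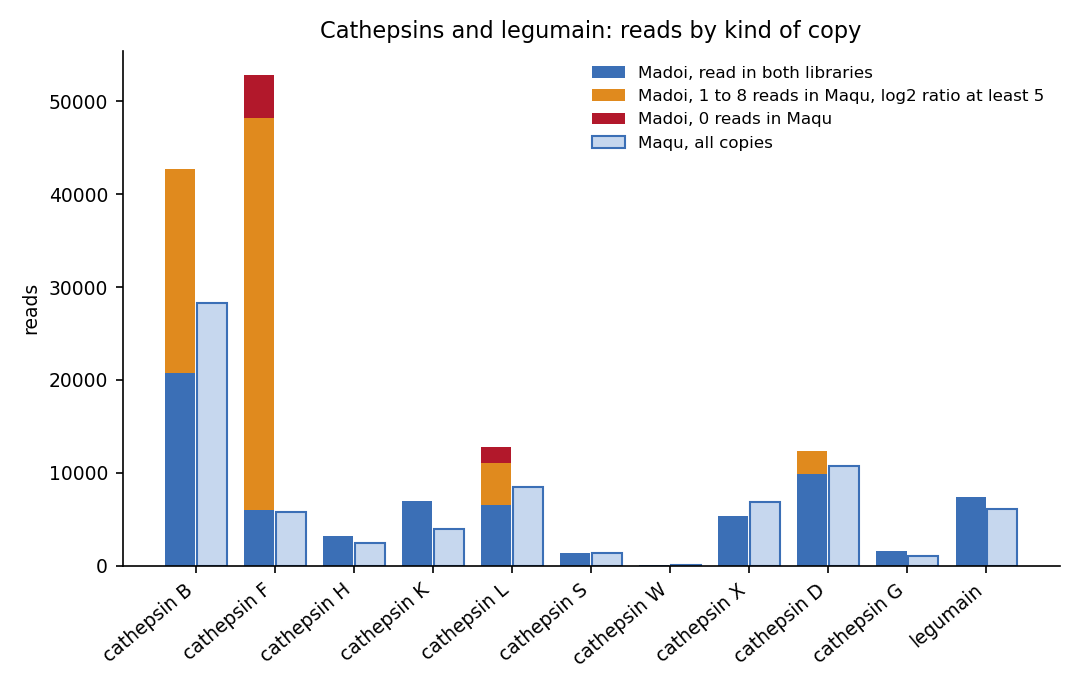
Reads (vertical axis, from 0) of the 10 cathepsins and legumain; the left bar of each is Madoi, stacked by kind of copy, and the right bar is Maqu over all copies. The Madoi bars of cathepsins B, F, L and D rise above the Maqu bars through the orange and red parts, which are copies with 0 to 8 reads in Maqu.

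The other cathepsins had shared copies alone. Cathepsin K, known in mammals for breaking down collagen in bone, was the highest of them in Madoi against Maqu, with 6994 and 3969 reads, 1.90-fold (log2 0.93, interval 0.87 to 0.98), just under the 2-fold threshold. Cathepsin G had 1600 and 1059 reads, a ratio of 0.71, and cathepsin H 3211 and 2399, a ratio of 0.53. Legumain, which cuts after asparagine and processes other lysosomal proteases, had 7352 and 6125, a ratio of 0.37. Cathepsin S, used by antigen-presenting cells, was nearly equal with 1365 and 1392. Cathepsin W, known from cytotoxic lymphocytes in mammals, had 33 and 68 reads, too few for a narrow interval (-1.58 to -0.31). Cathepsin X had 5369 and 6832 reads, a ratio of -0.24, but its copies went opposite ways. A 969-base copy had 826 and 578 reads, a ratio of 0.62 (interval 0.47 to 0.78). The main copy had 4543 and 6254, a ratio of -0.35, but its RPKM by the authors was 52.7 in Madoi and 53.4 in Maqu. The main copy was 1 of 2 among the 78 shared copies where the log2 ratio in RPKM and that in reads per library total differed by more than 0.2.

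Sphingolipid hydrolases had 3 Madoi-only copies of 20, or 15%, not far from the 20.2% of all annotated copies. Their 10 names had a median of -0.12 on shared copies, with 3 above 0 and 7 below, and 0 called higher or lower. The names were chosen by text and include enzymes outside the lysosome, such as sphingomyelin phosphodiesterase 2 and the ceramidases other than acid ceramidase. The median therefore does not describe lysosomal enzymes alone. Sphingomyelin phosphodiesterase, the acid enzyme that splits sphingomyelin in lysosomes, was the lowest, with 1973 against 3304 reads on its main copy and 62 against 185 on a second piece. Its sum differed by 1.59-fold, with less in Madoi and under the 2-fold threshold (log2 -0.67, interval -0.75 to -0.59). Sphingomyelin phosphodiesterase 2, a neutral enzyme outside the lysosome, had 200 and 308 reads, a ratio of -0.51, and sphingomyelin phosphodiesterase 3 had 33 and 38 on its shared copy. Sphingomyelin phosphodiesterase 4 had 732 and 648 reads on its shared copy, and 3 Madoi-only pieces with 239 reads together.

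The ceramidases free sphingosine from ceramide. Acid ceramidase, the lysosomal one, had 6054 reads in Madoi against 4987 in Maqu, a ratio of 0.39 (interval 0.34 to 0.44). Neutral ceramidase had 247 and 325, alkaline ceramidase 129 and 150, and dihydroceramidase 619 and 798, with ratios from -0.29 to -0.11. The acid enzyme was thus above 0 and the other ceramidases below, where the interval of the alkaline one, from -0.46 to 0.24, spanned 0. Galactosylceramidase, which degrades a myelin lipid, had 240 and 156 reads, a ratio of 0.73 (interval 0.43 to 1.03). Glucosylceramidase, whose human gene is mutated in Gaucher disease, had 555 and 653, a ratio of -0.12 with an interval from -0.29 to 0.04. The acid ceramidase copy stood at 45.4 RPKM in Madoi, and that of glucosylceramidase at 4.81.

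The sugar chain hydrolases went both ways. On shared copies their 5 names had a median of 0.33, with 3 above 0 and 2 below. Beta-hexosaminidase, which removes terminal N-acetylhexosamines from gangliosides and glycoproteins, had shared copies with 4722 and 3035 reads and with 2894 and 1634, and ratios of 0.75 and 0.93. The sum differed by 1.76-fold, with more in Madoi and under the 2-fold threshold (log2 0.82, interval 0.76 to 0.87). Alpha-galactosidase, the enzyme lost in Fabry disease, had 1196 and 835, a ratio of 0.63. Lysosomal alpha-glucosidase, which degrades glycogen in lysosomes, had 1637 and 1405 over 3 copies, a ratio of 0.33. Beta-galactosidase had 3366 and 3928, a ratio of -0.11, with shared copies from -0.52 to 0.40.

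Lysosomal alpha-mannosidase, which trims mannose from glycoproteins, had 3326 and 5269 reads, a difference of 1.47-fold with less in Madoi and under the threshold (log2 -0.55, interval -0.62 to -0.49). It also had 3 Madoi-only copies with 1434 reads together, and with them its ratio came to -0.04. Beta-hexosaminidase had 5 Madoi-only copies with 930 reads, and beta-galactosidase 2 with 225. These 10 copies were 47.6% of the 21 sugar chain hydrolase copies, against 20.2% Madoi-only among all annotated copies. They made up 13.1% of the Madoi reads of the sugar chain hydrolases.

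Among the other lysosomal names, the copies of the acid lipase differed from each other. Lysosomal acid lipase, which frees cholesterol and fatty acids from lipoprotein lipids, had a main copy of 2387 bases with 8346 and 6800 reads, a ratio of 0.41. A second copy of 2637 bases had 1931 and 497, a ratio of 2.07 (interval 1.93 to 2.21), and a short copy of 435 bases 75 and 9. Both of these were called higher in Madoi. The 2637-base copy was the only shared lysosomal copy marked significant in the authors' deposited table, where its log2 fold change was 2.07 and its FDR 0.279. Over the name the ratio was 0.61, or 1.53-fold. Whether the copies are separate genes or pieces of 1 gene was not tested.

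Lysosomal-associated membrane proteins 1/2, the main glycoproteins of the lysosomal membrane, had 19542 reads in Madoi against 22693 in Maqu, a ratio of -0.11 (interval -0.13 to -0.08). Lysosomal-associated transmembrane protein had 8792 and 8295, a ratio of 0.19. The name UDP-N-acetylglucosamine-lysosomal-enzyme, the phosphotransferase that starts the mannose-6-phosphate tag of lysosomal enzymes, had 2492 and 2405, a ratio of 0.16. These membrane and sorting proteins differed by at most 1.14-fold. Lysosomal Pro-X carboxypeptidase had 5651 reads in Madoi against 0 in Maqu on a Madoi-only copy of 1535 bases, at least 2033-fold higher. Its shared pieces, of 246 to 489 bases, had 75 and 78 reads together. For this name 98.8% of the Madoi reads came from Madoi-only copies.

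In the other shared pieces that passed 2-fold the reads were few. A 228-base piece of legumain had 4 reads in Madoi against 25 in Maqu, a 378-base piece of cathepsin H 8 and 31, a 204-base piece of cathepsin B 5 and 16, and a 325-base piece of pump subunit G 10 and 24. A 249-base piece of galactosylceramidase had 20 and 9. Of the 11 shared copies called higher or lower, 1 was longer than 477 bases, the 2637-base acid lipase copy.

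In the authors' deposited table, 37 of the 128 lysosomal copies were marked significant, all higher in Madoi. They were 27 of the 40 Madoi-only copies, 9 of the 9 nearly Madoi-only copies and 1 of the 78 shared copies. The direction of the Madoi-only and nearly Madoi-only copies was fixed by the reads that set their kind. The rule behind the mark is not given in the sources used here, and the shared copy was marked at an FDR of 0.279. Over the whole table, 6098 of 58458 copies were marked, 5397 of them higher in Madoi and 701 lower. The whole table includes copies without an annotation, and the share marked among annotated copies alone was not counted.

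The rest of the lysosome pathway was read from a list of 36 text patterns, of which 28 matched, under 39 names. Of these, 4 are enzymes that act outside the lysosome and match by their letters alone (exodeoxyribonuclease III, tripeptidyl-peptidase II, mannose-6-phosphate isomerase and neutral alpha-glucosidase C). Whether each of the other 35 names acts inside the lysosome was not checked. On shared copies the remaining 35 names had a median of 0.04, with 20 above 0 and 15 below, 1 higher and 1 lower, beside the 4.17% and 7.05% over all names. With the 4 enzymes the median was 0.02, with 1 higher and 2 lower. The higher name was mucolipin 2, an ion channel of endosomes and lysosomes, with 370 and 169 reads, a ratio of 1.24 (interval 0.97 to 1.51). The lower name was alpha-L-fucosidase, which removes fucose from glycoproteins, with 1925 and 4159, 2.00-fold lower and just past the threshold. That call leaves out a Madoi-only copy of alpha-L-fucosidase with 898 reads. Next to alpha-L-fucosidase stood heparan-alpha-glucosaminide N-acetyltransferase, a heparan sulfate degrading enzyme, at -0.98. Exodeoxyribonuclease III, which is not lysosomal, had 2445 and 5959. Beta-mannosidase, of glycoprotein breakdown, stood at 0.69. Alpha-glucosidase had 13386 and 1835 reads over its copies with Maqu reads, a ratio of 2.98, which turned to -0.31 on shared copies. Saposin, the precursor of activator proteins for sphingolipid hydrolases, had 43057 and 53557 reads, a ratio of -0.20, and a Madoi-only copy with 6652 reads.

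Among markers of macrophages and of the pooled tissues, 2 of 5 liver markers and 1 of 2 lung markers were called lower in Madoi, while 0 of the macrophage, heart and muscle markers were called higher or lower. Of 6 macrophage markers 3 had copies with Maqu reads under the exact text searched for. Macrophage colony-stimulating factor 1 receptor had 720 reads in Madoi against 1184 in Maqu, CD163 antigen 7675 and 15966, and mannose receptor, C type, 6406 and 8813. All 3 lay below 0, with ratios of -0.61, -0.95 and -0.35, and their reads summed to 14801 in Madoi and 25963 in Maqu. The 5 liver markers lay between -2.39 and -0.57 and the 2 surfactant proteins of lung between -1.12 and -0.998. Heart markers lay between -0.42 and -0.09 and skeletal muscle markers between -0.23 and 0.41. Defining markers of all 4 labelled tissues were thus present in both libraries. Pancreas enzymes, of a tissue that the labels do not list, had 57 reads in Madoi against 8992 in Maqu over 3 names, on copies with Maqu reads. The part of tissue or macrophage shares in the ratios of the lysosomal genes was not tested.

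**Figure D5:**
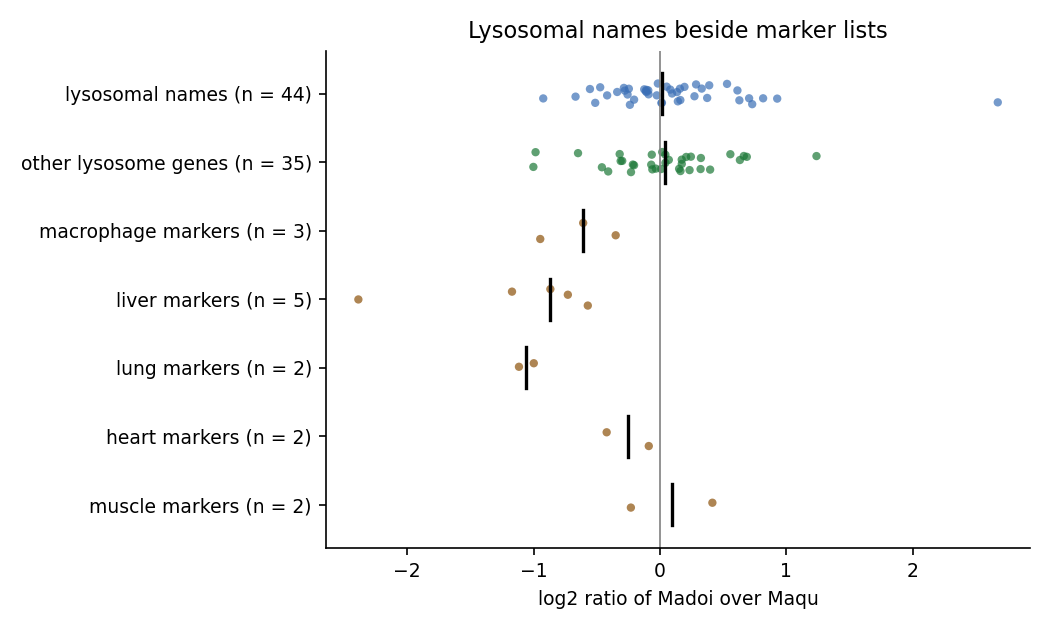
Log2 ratio of Madoi over Maqu (horizontal axis) for the 44 lysosomal names and the 35 other lysosome genes on shared copies, and for markers of macrophages, liver, lung, heart and muscle over copies with Maqu reads; 1 point is 1 name and the black bar is the median, with vertical scatter within a row for legibility. Both lysosome rows centre near 0, at 0.01 and 0.04, and all 3 macrophage markers lie below 0.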

How the data were processed

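Per the labels, RNA of liver, lung, heart and muscle was pooled for each population and sequenced as 1 Illumina library. The series' design text names Trinity and BLAST. In the sources used here, the aligner, counter and test are not given. The authors deposited expected counts per assembled gene, which are estimates with decimals. How the RPKM values deposited by the authors were made is not stated; in 2 of the 78 shared copies their log2 ratio departs by more than 0.2 from that of reads per library total. The log2 fold change, p-value and FDR deposited by the authors compare single libraries and are quoted as theirs.

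Expected counts were rounded and scaled by TMM (edgeR 4.0.16; factors 0.983 for Madoi and 1.02 for Maqu). For log2 ratios 0.5 reads, in proportion to library size, were added as a pseudocount. Intervals are Clopper-Pearson on the Madoi share of reads. Copies of 1 name were summed. For folds given as at least a value, a library at 0 was set to 3 counts, which is 0.0479 CPM for Madoi and 0.0444 for Maqu. The log2 ratios, calls and medians that include Madoi-only copies used the pseudocount instead. Reads are not independent molecules, so intervals and limits cover counting error alone. Close relatives under 1 name cannot be told apart.

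The copies, lists and settings were chosen with earlier results of these data known. Every name with at least 100 reads in copies with Maqu reads, or called, was to be named or covered by its group, with the 2 highest and 2 lowest of the other lysosome genes. Sphingomyelin phosphodiesterase 3, short pieces past 2-fold, saposin, CD63 antigen and Niemann-Pick C1 protein were named after their values were seen. Columns of other samples numbered 0.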

Additional observations from a re-analysis of the deposited data

How the results depend on the processing

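Results were recomputed with scaling by library total, DESeq2 1.42.0 size factors, no filter, a minimum of 50 reads, a threshold of 4-fold, calls without the interval, the highest copy per name, a pseudocount of 5 reads, Madoi-only copies added, and copies of almost 1 library left out. For the list of other lysosome genes, leaving out the 4 enzymes outside the lysosome was added after the data were seen. Of 118 recomputed medians and counts, 109 stayed close to their value, within the interval of a median or within 1.5 times a count. Many of them could not move, so this number does not measure robustness. The filter at 10 reads had removed no lysosomal copy, and the fold threshold and the counting interval do not enter a median. For the groups of 5 names, the interval of the median ran from the lowest name to the highest. Adding Madoi-only copies, all called higher through the reads that set their kind, took the copies called higher from 15 to 55. It also took the copy median from 0.09 to 0.63. It took the names called higher from 2 to 5, their median from 0.12 to 0.37 and the pump median from 0.02 to 0.52. Leaving out copies read almost only in 1 library gave 6 copies and 1 name higher. The 6 copies called lower became 1 with at least 50 reads and 2 at 4-fold. The 2 called names, AC39 and cathepsin F, kept their direction under these settings. Cathepsin F lost its call without the copies of almost 1 library, going from 9.04-fold to 1.12-fold. Of the 43 names with at least 100 reads, 2 changed sign with library totals, both within 0.016 of 0, 4 without the copies of almost 1 library, 5 with the highest copy per name and 5 with Madoi-only copies added. With the Madoi-only copy added, subunit C went from -0.47 to 1.09 and would be called higher, and the S1 subunit from -0.42 to 0.29. Each value rests on 1 library per population, and depth limits short pieces with few reads most. No paired analysis was possible because each population has 1 library.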

Other observations

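In the pathway texts of the file, 85 of the 128 lysosomal copies were listed under Lysosome. The choice of copies did not use these texts. Whether they were assigned independently of the annotation names is not given, so the count is no separate check. Over all annotated copies, 66 of 223 under Lysosome were Madoi-only, or 29.6%, and the 223 include those 85. By this share Lysosome ranked 36 of 141 pathways with at least 50 copies. The highest share was that of the citrate cycle, with 41 of 74 copies or 55.4%, and the proteasome stood at 41.0%.

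The CD63 antigen, a tetraspanin of late endosomes and lysosomes, had 13446 reads in Madoi and 12876 in Maqu on copies with Maqu reads, and 4 Madoi-only copies with 9954 reads. Niemann-Pick C1 protein, which exports cholesterol from lysosomes, had 4101 and 3536, and 2 Madoi-only copies with 2293 reads.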
